A study of Mus musculus with 16 samples.

Results

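The auxiliary subunits of voltage-gated calcium channels were examined in migrating GABAergic cells of the embryonic mouse cortex. The 8 genes were taken by symbol from the deposited count table, the 4 alpha2delta genes Cacna2d1, Cacna2d2, Cacna2d3 and Cacna2d4 and the 4 beta genes Cacnb1, Cacnb2, Cacnb3 and Cacnb4, out of 24539 genes in all. A voltage-gated calcium channel has a pore-forming alpha1 subunit, and its delivery to the membrane and its gating depend on the auxiliary subunits. The alpha2delta subunits sit on the outer face of the membrane, carry the binding site of gabapentinoid drugs in some members, and bind thrombospondins, while the beta subunits sit on the cytoplasmic face, grip a linker of the pore and keep it from being degraded. Calcium entry through such channels is known to shape the start and stop of interneuron migration.

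RNA came from GAD67-GFP-positive cells, which carry green fluorescent protein under control of the gene for a GABA-synthesising enzyme, laser-captured from fixed cortical plate of CD1 embryos at embryonic day 14.5 (genotype GAD67-GFP+/-, 1 embryo per litter, labelled male, about 1000 cells per embryo). All dams were gavaged daily on gestational days 11 to 14, either with alpha-cypermethrin, a pyrethroid insecticide that acts on sodium channels, at 10 mg/kg, or with the corn oil vehicle that served as control. Dams of the stressed groups were also restrained under bright light for 45 min, in 3 daily sessions from day 12, with a last session on day 14 before collection. The 4 groups of 4 embryos were thus vehicle non-stressed, cypermethrin non-stressed, vehicle stressed and cypermethrin stressed, numbered within a group in the order of deposition. Replicates came from different litters.

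Library totals ran from 2291283 to 4324129 counts. Transcripts of the captured lineage were present in all 16 libraries, with at least 40.4 CPM (CPM being read counts scaled to a common library size) of Gad1 and at least 171.5 CPM of the interneuron transcription factor gene Lhx6. Other interneuron markers fell far lower in single libraries. The lowest values were 0.531 CPM for Dlx6, 1.43 for Dlx5, 6.11 for Dlx2 and 7.97 for Slc32a1. Glutamatergic neuron RNA was abundant as well: the 8 marker genes listed for it summed to 3456 to 5531 CPM, against 1533 to 2518 CPM for 13 interneuron markers. The labels call the cells neural progenitors, and 10 radial glia and progenitor markers summed to 778 to 1089 CPM. The largest parts of that sum were Nes, Vim and Mki67, with means of 393, 246 and 179 CPM. Slc1a3, Fabp7 and Sox2 had means of 57.9, 28.3 and 21.6 CPM. Pax6, Neurog2, Eomes and Hes5 were lowest, with means of 8.43, 5.03, 1.71 and 0.143 CPM. The subunit levels thus describe the captured material and not interneurons alone. In such bulk samples fewer cells of a type and less RNA per cell cannot be told apart. The library labelled vehicle stressed replicate 1 went against its label, with 9521 counts of Xist and 1 count of 4 Y-linked genes, and it also had the highest glutamatergic marker sum (5531 CPM). Fitted differences that rest most on it, and the order of the genes, are given with and without it. Family shares and the spreads of the subunit genes include it. The sample descriptions also carry 1 of 2 library codes, the first on 7 libraries and the second on 9, whose meaning is not stated.

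The 8 genes lie on 7 mouse chromosomes, and all are annotated as protein coding in GENCODE vM21 (build mm10, the build named by the submitters). Cacna2d1 spans 15934691 to 16374511 of chromosome 5, Cacna2d2 107399612 to 107529343 of chromosome 9, Cacna2d3 28904943 to 29721864 of chromosome 14 and Cacna2d4 119236526 to 119352407 of chromosome 6. Cacnb1 spans 98001508 to 98023034 of chromosome 11, Cacnb3 98630840 to 98644529 of chromosome 15, and both Cacnb2 (14603088 to 14987908) and Cacnb4 (52428320 to 52676831) lie on chromosome 2. Gene spans differ far more than exon lengths: Cacnb3 covers 13.7 kb and Cacna2d3 816.9 kb, with 4.01 and 8.72 kb of annotated exon. Lrtm1 overlaps Cacna2d3 and Lrtm2 overlaps Cacna2d4, each on the opposite strand, and Gm13315 overlaps Cacnb2 on the same strand. No source used here says whether the counting used strand, so the counts of these 3 subunit genes are uncertain to that extent.

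Each matched subunit gene had a CpG-dense promoter window, but not every start was dense. In the RefSeq promoter table (GRCm38.p6, 250 bases before to 50 after each start) 7 of the 8 genes were matched, and each of these 7 had a start whose 300-base window held at least 29 CG dinucleotides, where the median of 32851 promoters was 7. The Cacna2d1 window had 42, more than 97.0% of promoters, and the densest Cacnb2 window had 35, more than 93.0%, although the level of Cacna2d1 per kilobase was far above that of Cacnb2 in these cells. A second, downstream Cacnb2 start had 4. The other beta genes also had sparser starts, with 3 for Cacnb1, 7 for Cacnb3, and 27 and 5 for Cacnb4. Only the densest start of each gene enters the minimum of 29, while the median is over single windows. The Cacna2d1 and Cacnb2 windows are shown 5′ to 3′ on the strand of the gene, with each CG dinucleotide in capitals. Both strands carry it, since CG is its own reverse complement. This pair was picked because Cacnb2, near the lower end of the family's levels, has a dense start, as has the most abundant alpha2delta gene. Cacnb3, the gene with the highest level per kilobase, had no start denser than 29.
Cacna2d1, chr5:15934441-15934740, plus strand: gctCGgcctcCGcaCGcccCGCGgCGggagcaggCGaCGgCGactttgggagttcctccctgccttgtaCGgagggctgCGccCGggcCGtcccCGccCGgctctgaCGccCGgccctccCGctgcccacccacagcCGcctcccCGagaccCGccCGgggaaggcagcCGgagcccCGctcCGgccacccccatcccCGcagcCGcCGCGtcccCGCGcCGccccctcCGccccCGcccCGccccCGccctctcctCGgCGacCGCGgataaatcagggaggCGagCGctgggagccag
Cacnb2 upstream start, chr2:14604056-14604355, plus strand: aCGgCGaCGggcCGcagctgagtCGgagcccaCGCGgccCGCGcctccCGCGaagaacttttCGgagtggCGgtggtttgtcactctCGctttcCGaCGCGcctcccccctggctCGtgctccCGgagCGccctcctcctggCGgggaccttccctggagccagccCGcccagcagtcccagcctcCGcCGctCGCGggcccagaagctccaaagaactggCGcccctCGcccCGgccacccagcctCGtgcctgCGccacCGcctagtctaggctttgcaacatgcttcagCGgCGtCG
Cacnb2 downstream start, chr2:14823842-14824141, plus strand: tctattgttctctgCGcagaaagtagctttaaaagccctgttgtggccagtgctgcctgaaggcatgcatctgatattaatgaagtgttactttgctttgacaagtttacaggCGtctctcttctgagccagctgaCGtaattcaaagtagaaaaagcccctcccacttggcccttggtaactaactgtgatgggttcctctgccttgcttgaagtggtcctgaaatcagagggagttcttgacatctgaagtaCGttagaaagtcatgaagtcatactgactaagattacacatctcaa
Reads were counted per gene, so the start in use is not told by these counts.

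Cacnb3 and Cacna2d1 led the family, and Cacna2d4 was detected in 3 of 16 libraries. To compare genes, each level was divided by the gene's exon length, which assumes that reads fall evenly over annotated exons. Cacnb3, a beta subunit best known from brain N-type channels, had 38.5 ± 6.77 CPM per kb (SD, n = 16 libraries), which lay above 92.9% of the 12926 tested genes with a length. Cacna2d1, the widely expressed gabapentin-binding alpha2delta, followed with 26.4 ± 6.90 CPM per kb. Cacnb3 was above Cacna2d1 in 15 of 16 libraries, the exception being cypermethrin non-stressed replicate 3.

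Cacna2d2, the alpha2delta gene mutated in the epileptic ducky mouse, had 17.4 ± 7.49 CPM per kb, and Cacnb4, the beta gene mutated in the lethargic mouse, had 17.3 ± 3.65. Cacna2d2 was the higher of this pair in 6 of 16 libraries, so by exon length these neighbours did not differ beyond their spread. Scaled by the longest coding transcript, Cacna2d2 was the higher in 12 of 16 (means of 23.8 and 18.9 CPM per kb). Their standing in single libraries thus depends on the length used. Cacnb1, known from skeletal muscle and also present in brain, had 10.2 ± 4.11 CPM per kb and was below Cacnb4 in 12 of 16 libraries. Cacna2d3, an alpha2delta gene tied to hearing and pain, had 5.82 ± 2.32 and was below Cacnb1 in 14 of 16.

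Cacnb2, the main beta gene of heart, had 1.13 ± 0.682 CPM per kb, above only 10.3% of tested genes, and Cacna2d4, known from photoreceptors, had 0.0275. Scaling by the longest coding transcript in place of all exons exchanged Cacnb1 and Cacna2d3 (13.6 and 13.7 CPM per kb), and leaving out vehicle stressed replicate 1 exchanged Cacna2d2 and Cacnb4. The other places in the order held under both choices.

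**Figure D1:**
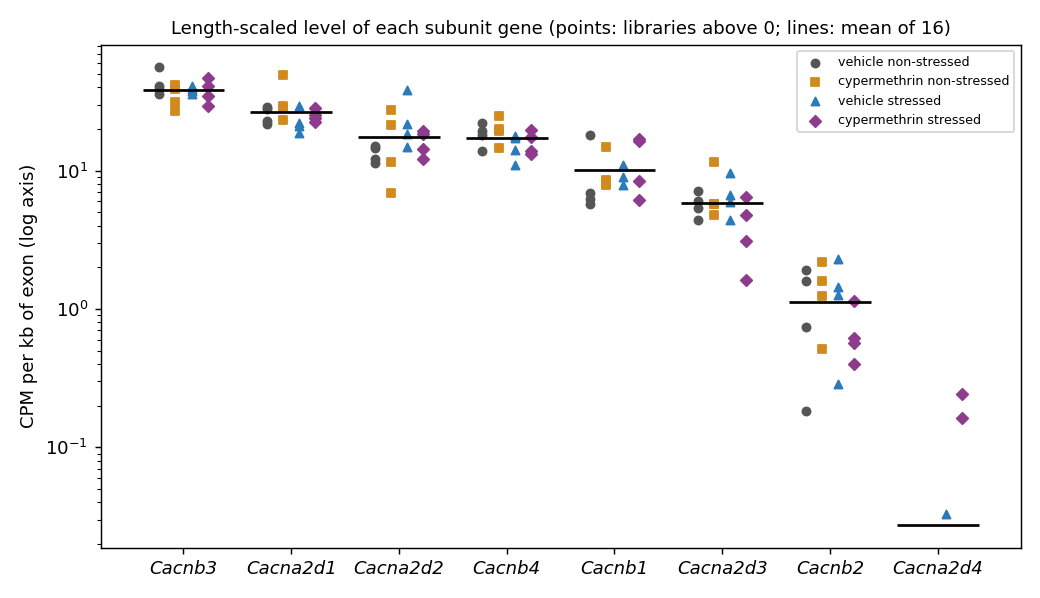
Length-scaled level (CPM per kb of exon, log axis) of the 8 subunit genes, ordered by their mean; each point is 1 library above 0, coloured and shaped by group, and each line is the mean over 16 libraries. Cacnb3 (38.5) and Cacna2d1 (26.4) are at the left, and only 3 libraries have a point for Cacna2d4.

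Within the alpha2delta family Cacna2d1 was the most abundant gene per kilobase in 15 of 16 libraries. The exception was the library labelled vehicle stressed replicate 1, where Cacna2d2 held 54.7% of the family's summed length-scaled level and Cacna2d1 31.6%. Over all 16 libraries Cacna2d1 held 54.0 ± 8.23% of that level (SD, n = 16), Cacna2d2 34.3 ± 8.42%, Cacna2d3 11.6 ± 3.03% and Cacna2d4 0.0642 ± 0.170%. Within the beta family Cacnb3 was the most abundant in all 16 libraries, with 57.3 ± 5.16% of the family's level. Cacnb4 held 25.9 ± 5.07%, Cacnb1 15.1 ± 5.72% and Cacnb2 1.71 ± 1.06%. Members varied unequally between libraries: as a percent of the mean, the SD of the CPM was 17.6% for Cacnb3, 21.1% for Cacnb4 and 26.2% for Cacna2d1, against 43.1% for Cacna2d2 and 60.7% for Cacnb2.

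**Figure D2:**
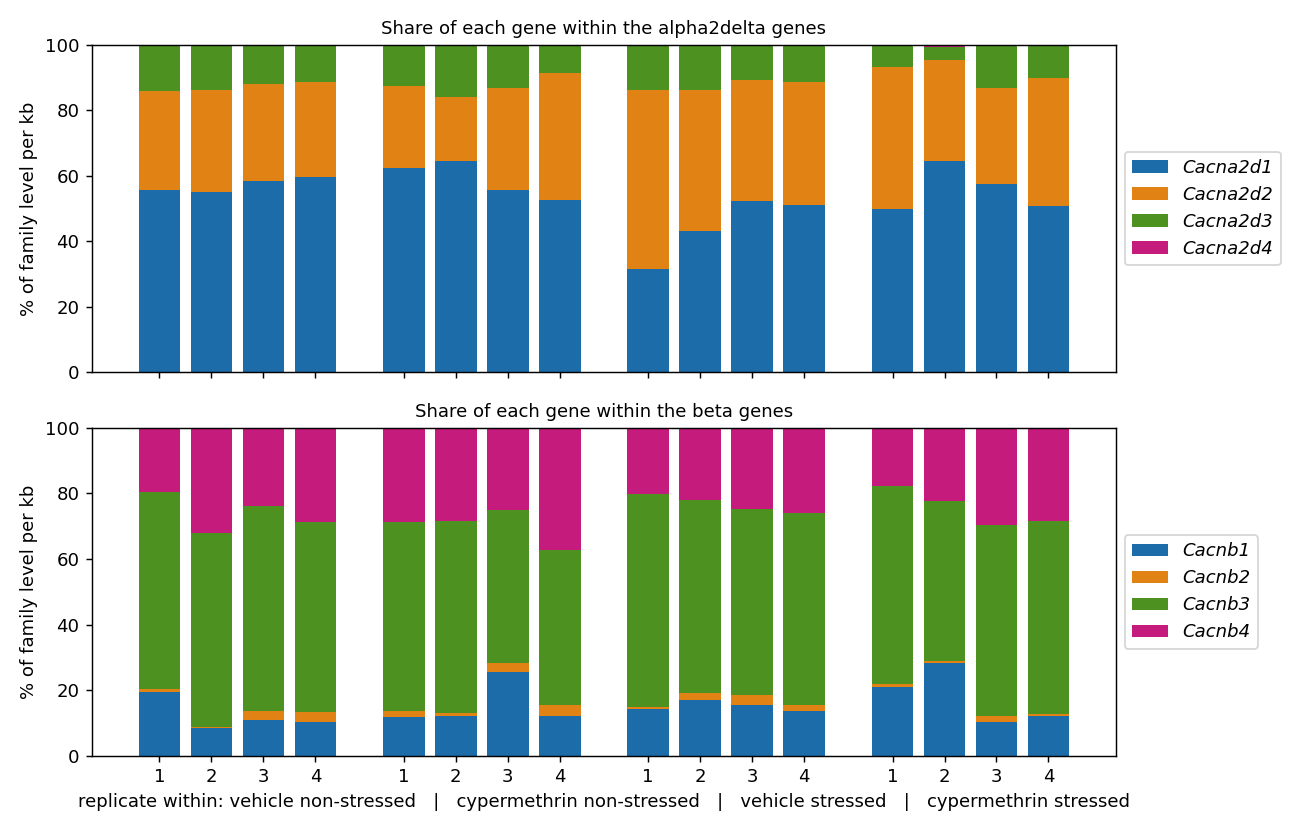
Share of each gene in the summed CPM per kb of its family (percent), 1 bar per library, for the alpha2delta genes above and the beta genes below, with the 4 groups side by side. Cacna2d2 takes 36.9 to 54.7% in the 4 vehicle stressed libraries and 29.2 to 31.2% in the 4 vehicle non-stressed ones, and Cacnb3 takes the largest beta share in all 16. The shares have no test, and the CPM of Cacna2d2 itself overlaps between these groups.

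No subunit gene changed past the threshold in any comparison. The 7 genes with enough counts (all but Cacna2d4) were tested among 13224 genes with edgeR's quasi-likelihood test, and a call needed a p under 0.05 after Benjamini-Hochberg adjustment over all of them. In each of the 6 comparisons (cypermethrin alone, stress alone and both exposures against vehicle non-stressed, the interaction of the exposures, and the average effect of cypermethrin and of stress) 0 of 7 were called, where 0% of all genes were. At an unadjusted p under 0.05 the 7 genes gave 1 result over the 6 comparisons, Cacna2d2 with stress alone, against 3.71%, 5.08%, 1.49%, 4.70%, 4.59% and 5.13% of all genes in the order just given. DESeq2 and limma voom also called 0 of the 7 in the 6 comparisons, and each gave the same single result at an unadjusted p under 0.05.

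**Figure D3:**
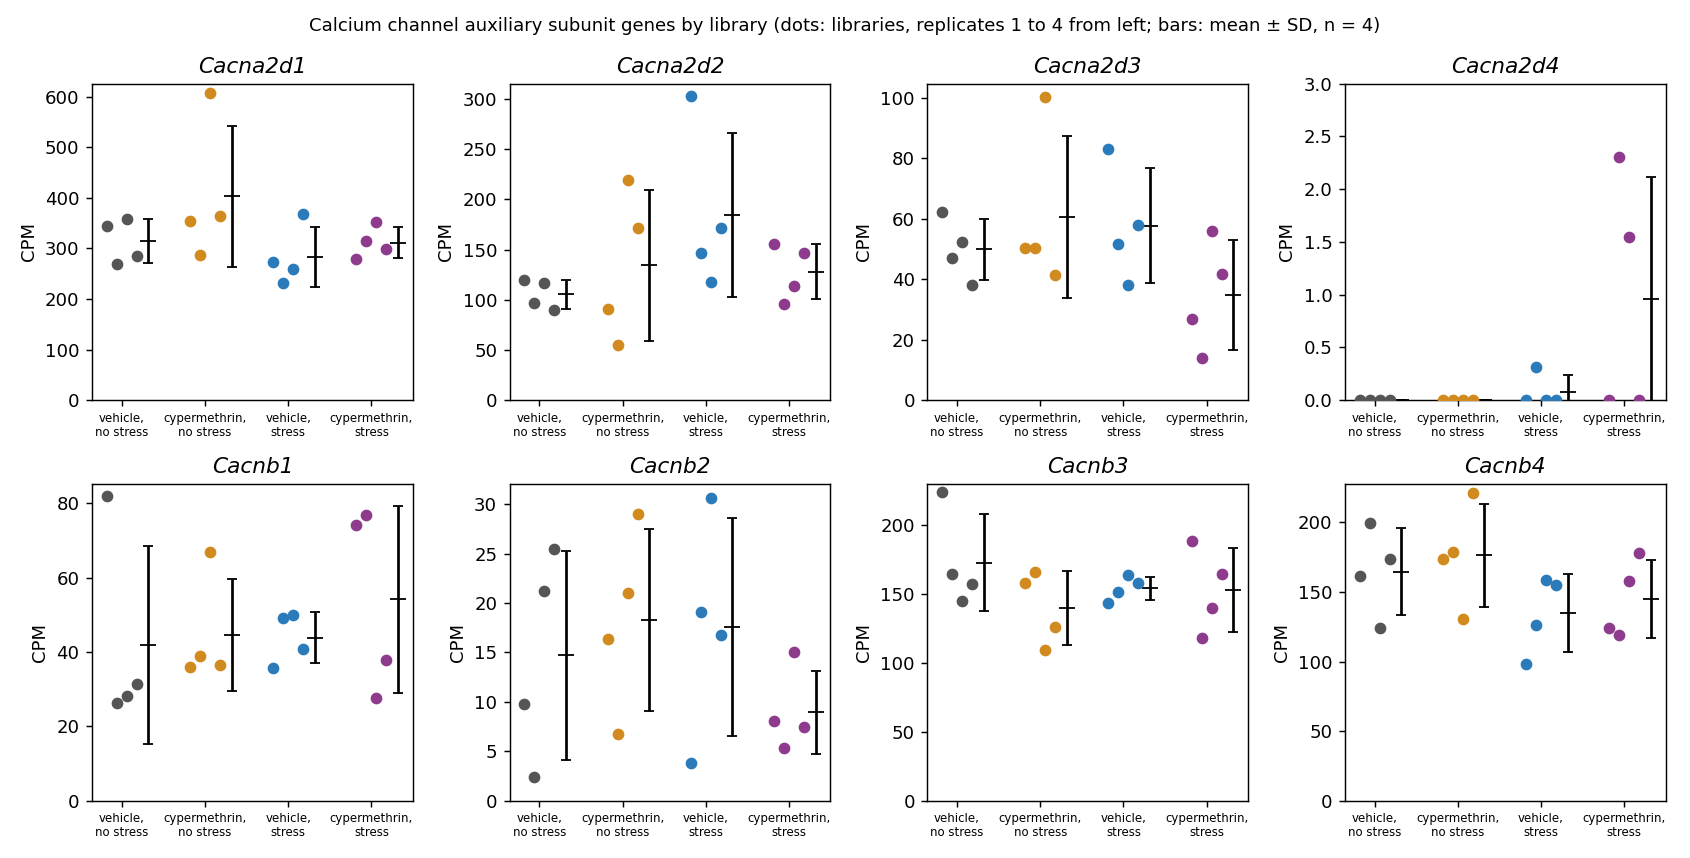
CPM of each subunit gene in each library, by group, on axes that start at 0; dots are libraries and the bar beside them is the mean ± SD (n = 4). Groups overlap for all 8 genes, and cypermethrin non-stressed replicate 3 is the highest dot of its group for Cacna2d1, Cacna2d2, Cacna2d3 and Cacnb1.

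Cacna2d1 had 345, 268, 358 and 285 CPM in vehicle non-stressed replicates 1 to 4 and 353, 287, 606 and 364 CPM in cypermethrin non-stressed replicates 1 to 4. It had 274, 231, 259.6 and 367 CPM with stress alone and 279.7, 314, 353 and 298 CPM with both exposures. All groups overlapped, and 1 library, cypermethrin non-stressed replicate 3, stood above the other 15. With cypermethrin alone the fitted log2 difference was 0.36 ± 0.21 (SE, 4 libraries against 4), a 1.28-fold difference with a 95% interval of 0.957 to 1.72 (edgeR adjusted p = 0.999), and without that library the log2 difference was 0.10. Averaged over the other exposure, cypermethrin was at 0.25 ± 0.15 (adjusted p = 0.981) and stress at -0.26 ± 0.15 (adjusted p = 0.960), and without the same library these were 0.12 and -0.13. Other leave-outs went the other way. Without cypermethrin non-stressed replicate 2, cypermethrin alone gave 0.49 (edgeR unadjusted p = 0.0292, not called). Without vehicle stressed replicate 4, the averages were 0.32 and -0.34. Both averages had an unadjusted edgeR p under 0.05 in each of these settings, and neither was called.

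Cacna2d2 had the smallest p of the family. Its levels were 119.5, 97.2, 116 and 89.6 CPM in the vehicle non-stressed libraries and 303, 147, 117.5 and 172 CPM in the vehicle stressed ones, in replicate order. Stressed replicates 1, 2 and 4 lay above the whole non-stressed range, and replicate 3 lay inside it. Stress alone gave 0.81 ± 0.33 on the log2 scale (SE, 4 libraries against 4), or 1.75-fold with a 95% interval of 1.09 to 2.80 (unadjusted p = 0.0221, edgeR adjusted p = 0.965). Without the library labelled vehicle stressed replicate 1, where the gene was highest, it was 0.46 (unadjusted p = 0.163). Within the first library code, which that sample carries, it was 1.05 and within the second 0.49, each from 2 against 2 libraries.

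With cypermethrin alone Cacna2d2 spread from 54.9 CPM in replicate 2 to 219.5 CPM in replicate 3, with 91.3 and 171 CPM in replicates 1 and 4. With both exposures it had 155, 96.2, 114 and 147 CPM. The spread with cypermethrin alone covered the whole range of the vehicle non-stressed group. The log2 difference of cypermethrin alone was 0.35 ± 0.33 (edgeR adjusted p = 0.999), and without cypermethrin non-stressed replicate 3 it was 0.00. Both exposures gave 0.28 ± 0.33 (adjusted p = 1), and the interaction was -0.87 ± 0.47 (adjusted p = 0.985), or -0.54 without vehicle stressed replicate 1 and likewise -0.54 without cypermethrin non-stressed replicate 3.

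The ratio of Cacna2d2 to Cacna2d1 was higher in each vehicle stressed library than in any vehicle non-stressed one. The CPM of Cacna2d2 divided by that of Cacna2d1 was 0.346, 0.362, 0.325 and 0.314 in vehicle non-stressed replicates 1 to 4 and 1.11, 0.636, 0.453 and 0.468 in the vehicle stressed ones. The groups did not overlap. Leaving out the library labelled vehicle stressed replicate 1 could not make them overlap, so that setting adds no check. Of 13223 genes set against Cacna2d1 in this way 1.93% did not overlap between these groups, and 3.96% without that library. The ratio was chosen after its values were seen and has no test. With cypermethrin alone it ran from 0.191 to 0.471 and with both exposures from 0.306 to 0.555, so the groups with cypermethrin overlapped.

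Cacna2d3 had its lowest group mean with both exposures. It had 26.9, 14.1, 56.1 and 41.9 CPM there, against 62.3, 47.0, 52.2 and 38.1 CPM with neither exposure, and the ranges overlapped. With cypermethrin alone it had 50.2, 50.3, 100.4 and 41.6 CPM and with stress alone 83.2, 51.7, 38.1 and 58.0 CPM. The interaction was -1.01 ± 0.57 (SE, edgeR adjusted p = 0.985, 95% interval of -2.18 to 0.15), and it was -0.67 without cypermethrin non-stressed replicate 3, the library with 100.4 CPM. Both exposures against neither gave -0.52 ± 0.40 (adjusted p = 1), with -1.42 within the first library code and 0.12 within the second.

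Cacna2d4 had no count in 13 of 16 libraries. Its 18 counts were 1 in vehicle stressed replicate 2 and 10 and 7 in cypermethrin stressed replicates 2 and 3, or 2.31 and 1.55 CPM. The 4 libraries with neither exposure, like the 4 with cypermethrin alone, had none, which allows up to 0.206 and 0.229 CPM over the group (3 counts, counting error only). Lrtm2, on the opposite strand of the same place, had 30 and 23 counts in the 2 libraries with most Cacna2d4, but 146 counts in vehicle stressed replicate 3, where Cacna2d4 had none. The gene had too few counts for the test, and with no filter on low counts edgeR did not call it in the 6 comparisons, though its unadjusted p was under 0.05 with both exposures and for stress averaged over cypermethrin.

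Among the beta genes, Cacnb3 had the narrowest spread. It had 224, 164.5, 144 and 157 CPM with neither exposure, 157, 166, 109 and 126 CPM with cypermethrin alone, 143, 151, 163 and 157.5 CPM with stress alone and 188, 118, 139 and 164.5 CPM with both. The log2 difference of cypermethrin alone was -0.30 ± 0.22 (SE, edgeR adjusted p = 0.999), a 0.811-fold level with a 95% interval of 0.592 to 1.11. It was -0.15 without vehicle non-stressed replicate 1, the library with 224 CPM. Stress averaged over cypermethrin was at -0.02 ± 0.16 (adjusted p = 0.996), with a 95% interval of 0.790 to 1.23-fold.

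Cacnb4 had 161, 199.5, 124 and 174 CPM with neither exposure and 98.5, 127, 159 and 155 CPM with stress alone. It had 174, 179, 130.5 and 221 CPM with cypermethrin alone and 124, 119, 158 and 178 CPM with both. Every group overlapped every other, and the library labelled vehicle stressed replicate 1 was the lowest of the 16. Stress alone gave -0.29 ± 0.23 (SE, edgeR adjusted p = 0.978), and -0.16 without that library. Stress averaged over cypermethrin gave -0.28 ± 0.17 (edgeR adjusted p = 0.960), but -0.60 within the first library code, which holds 1 cypermethrin non-stressed library, and 0.00 within the second. Cypermethrin averaged over stress gave 0.10 ± 0.17 (edgeR adjusted p = 0.990).

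Cacnb1 had libraries well above the rest in 3 of the 4 groups, all but vehicle stressed. It had 81.8 CPM in vehicle non-stressed replicate 1 and 26.2, 28.3 and 31.4 CPM in replicates 2 to 4, and 74.3 and 76.8 CPM in cypermethrin stressed replicates 1 and 2 against 27.6 and 37.9 CPM in replicates 3 and 4. With cypermethrin alone it had 35.8, 38.9, 67.0 and 36.4 CPM and with stress alone 35.7, 49.2, 49.9 and 40.8 CPM. Of the libraries with these higher levels, cypermethrin non-stressed replicate 3 carried the second library code and the others the first. Both exposures against neither gave 0.37 ± 0.42 (edgeR adjusted p = 1), and 0.92 without vehicle non-stressed replicate 1 (unadjusted p = 0.0384, adjusted p = 1).

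Cacnb2 was the least precisely measured of the tested genes, with 824 counts over 16 libraries. It had 9.76, 2.40, 21.2 and 25.5 CPM with neither exposure, 16.4, 6.78, 21.0 and 29.0 CPM with cypermethrin alone, 3.81, 19.1, 30.6 and 16.7 CPM with stress alone and 8.09, 5.31, 15.0 and 7.48 CPM with both. The mean was lowest with both exposures, where the log2 difference from neither was -0.71 ± 0.71 (SE, edgeR adjusted p = 1), and the 95% interval of 0.224 to 1.66-fold includes 1. The log2 difference was -0.31 without vehicle non-stressed replicate 4 and -1.08 without cypermethrin stressed replicate 3. Its interaction of -1.28 ± 0.99 (adjusted p = 0.992) was the largest in size of the 7 tested genes and had the largest standard error. By library code the mean was 9.27 ± 6.35 CPM (SD, n = 7) under the first and 19.3 ± 8.57 CPM (n = 9) under the second (edgeR adjusted p = 1), a comparison made after the values were seen.

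Read as families, the tested alpha2delta genes had positive fitted values with cypermethrin alone (3 of 3, median log2 difference 0.35), beside 52.4% of all tested genes (median 0.03). The beta genes had 3 of 4 positive, with a median of 0.09. Without cypermethrin non-stressed replicate 3 the values of Cacna2d1, Cacna2d2, Cacna2d3 and Cacnb1 were 0.10, 0.00, -0.07 and -0.17. That library also had the highest sums of all 16 for pericyte and meningeal (3221 CPM), endothelial (444 CPM) and microglia and macrophage markers (443 CPM), whose part in these values was not tested. With stress alone 4 of 7 subunit genes were positive (median 0.07), beside 50.8% of all genes (median 0.01). With both exposures 2 of 7 were positive (median -0.18), beside 50.3% (median 0.00), and in the interaction 3 of 7 (median -0.22), beside 47.4% (median -0.04). Ranges of the groups compared overlapped for all 7 genes in the 3 comparisons with vehicle non-stressed, where 2.52%, 2.90% and 2.62% of all genes did not overlap. They also overlapped for all 7 between the 8 libraries with and the 8 without cypermethrin, where 0.0302% of all genes did not, and between those with and without stress, where 0% did not.

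**Figure D4:**
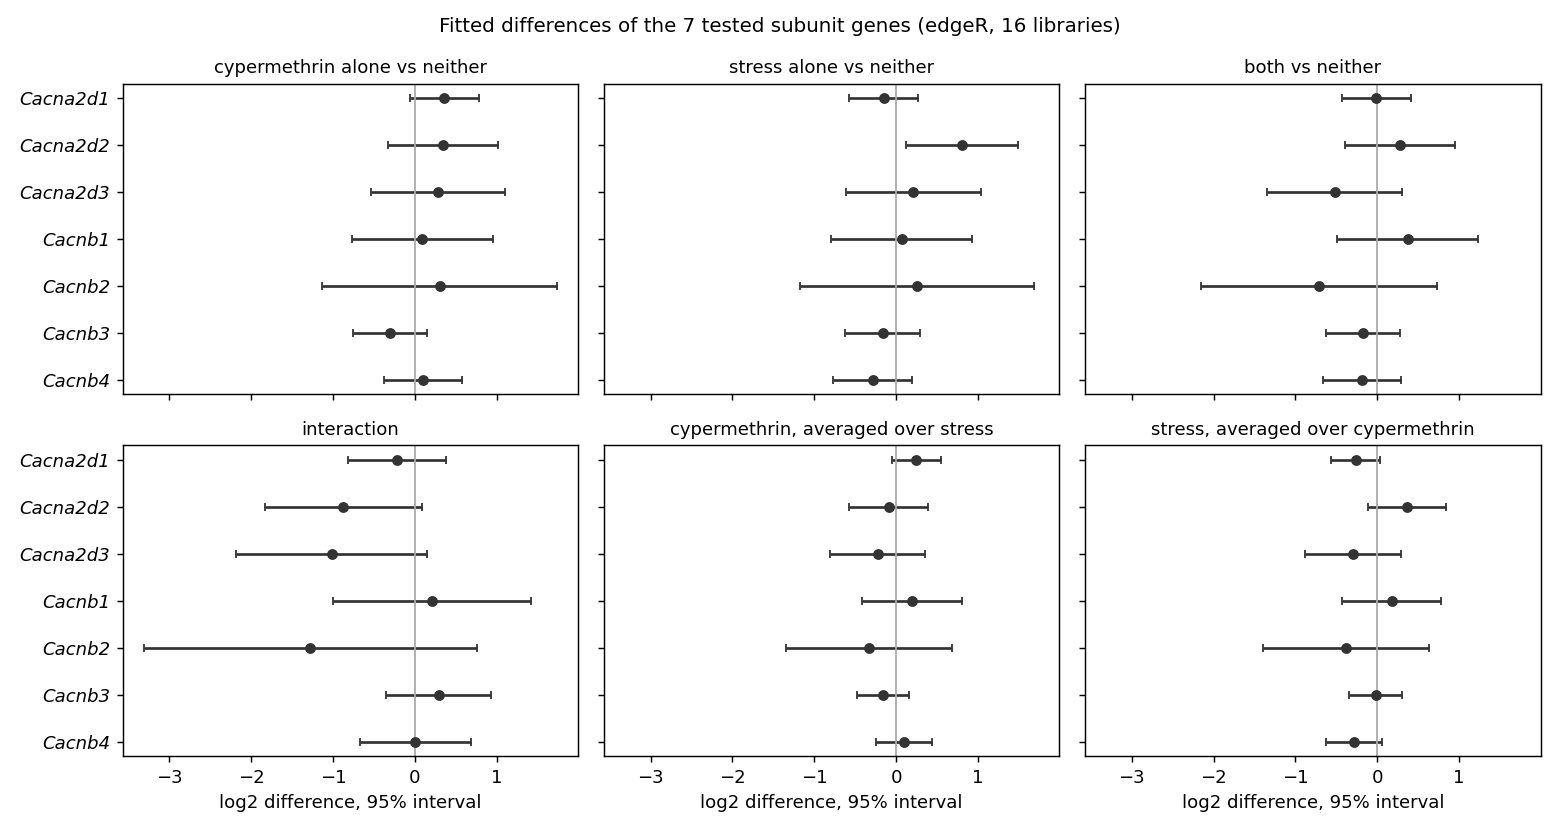
Fitted log2 differences of the 7 tested subunit genes with their 95% intervals, 1 panel per comparison, with 0 marked by a vertical line. Of the 42 intervals, only that of Cacna2d2 with stress alone excludes 0 (0.13 to 1.49), before any adjustment, and the intervals of Cacnb2 are the widest.

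The channel genes around these subunits gave no call either. Of the 10 pore genes 8 were tested, and Cacna1e, the pore of R-type channels, led with 24.6 ± 5.48 CPM per kb, between Cacna2d1 and Cacna2d2, while Cacna1c, an L-type pore, had 11.6 ± 6.80 (SD, n = 16). The library labelled vehicle stressed replicate 1 had 774 CPM of Cacna1c, against 152 to 288 CPM in the other 15, whose level was 9.89 ± 1.42 CPM per kb. With cypermethrin alone 4 of 8 pore genes had positive fitted values (median -0.01), with stress alone 4 of 8 (median 0.00) and with both exposures 2 of 8 (median -0.09). All 9 tested ligands and relatives of alpha2delta, among them the synaptic adhesion gene Nrxn3 (34.0 ± 11.2 CPM per kb), stayed uncalled, with medians of 0.02, 0.17 and 0.07 in these comparisons. At an unadjusted p under 0.05 the pore genes gave 0 results in each of the 6 comparisons, and the ligands gave 1, Nrxn2 with stress alone, which had 1234 CPM in vehicle stressed replicate 3 and 37.1 to 163 CPM in the other 15 libraries. The Nrxn2 log2 difference with stress alone was 2.22 with that library and 0.15 without it. Of the 8 tested scaffolds and adaptors, those with the highest CPM were the ubiquitin ligase gene Nedd4 (118 ± 13.6 CPM per kb) and Ahnak, a giant scaffold protein that binds beta subunits (8.93 ± 2.91). Of these 8, 0 were called in the 6 comparisons by edgeR, DESeq2 or limma voom, and by edgeR 1 had an unadjusted p under 0.05 for cypermethrin averaged over stress and 1 for stress averaged over cypermethrin. None of the 4 RGK GTPase genes, whose products bind beta subunits and inhibit the channel, had enough counts for the test.

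Of the 8 gamma genes, most of which encode auxiliary subunits of AMPA receptors, 6 were tested and 0 were called over all libraries in the 6 comparisons by edgeR, DESeq2 or limma voom. By edgeR 1 of the 6, Cacng7, had an unadjusted p under 0.05 in each of 4 comparisons (stress alone, the interaction and both averages). Cacng4 and Cacng7 led with 19.0 ± 3.77 and 28.6 ± 39.8 CPM per kb over all 16 libraries (SD). Without the library labelled vehicle stressed replicate 1, Cacng7 was at 18.7 ± 4.29 CPM per kb (n = 15), close to the 19.0 of Cacng4. The large spread of Cacng7 came from 1 library: the library labelled vehicle stressed replicate 1 had 432 CPM, against 29.2 to 66.3 CPM in the other 15. The Cacng7 log2 difference with stress alone was 1.77 ± 0.52 (edgeR adjusted p = 0.965) with that library and 0.25 without it. The interaction was -1.65 with and -0.13 without it, cypermethrin averaged over stress -0.80 and -0.03, and stress averaged over cypermethrin 0.95 and 0.18. Cacng7 with stress alone was called within the first library code by edgeR, which rests on that library and 1 other stressed one.

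For the 5 subunit genes with a mean of at least 50 CPM, the genes most like each in log2 CPM over the 16 libraries were taken from 13223 others. They were Sema6d (Pearson r = 0.858, Spearman rho = 0.797) for Cacna2d1, Cald1 (0.853 and 0.697) for Cacna2d2, Hadh (0.853 and 0.768) for Cacna2d3, Pde6d (0.869 and 0.809) for Cacnb3 and Tmem87b (0.848 and 0.871) for Cacnb4. The next in each case were 1110058D11Rik and Setd6, Trim11 and Lifr, Nsmce4a and Zcchc7, Diras1 and Ephb6, and Arhgap5 and Vps41, with r from 0.832 to 0.868. These are the highest of many correlations over 16 libraries that share depth and library effects, and they are given as a description. Between the 7 tested subunit genes themselves, which were not picked for likeness, r ran from -0.48 (Cacna2d1 and Cacnb3) to 0.42 (Cacna2d2 and Cacna2d3) over 21 pairs and a median of 0.05.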

How the data were processed

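RNA of laser-captured cells was extracted from fixed tissue and made into libraries with a Trio RNAseq kit, per the labels. The authors deposited whole-number read counts per gene symbol, 1 column per sample, aligned with STAR 2.5 to mm10 (both from the submitters' processing notes). No source used here gives the counting tool, the annotation it used, its strand setting or filters. Samples were grouped by the exposures in their labels.

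Counts were scaled by TMM and tested with edgeR 4.0.16 (R 4.3.3). Settings were filterByExpr with a count minimum of 10, a means model of 4 groups on 16 libraries, and Benjamini-Hochberg over 13224 genes, threshold 0.05. A check on simulated data came first and covered only cypermethrin averaged over stress, not the other comparisons. limma 3.58.1 (voom) and DESeq2 1.42.0 were alternatives, beside other scalings, no filter, the library code and leaving out each library. The biological coefficient of variation was 0.586, and 95% intervals come from the fit. Levels are CPM, divided by GENCODE vM21 exon length where genes are compared. Of 24539 symbols 23835 matched the annotation once. A count of 0 was given an upper limit of 3 counts. Promoters come from RefSeq.

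The subunit genes and the other lists were chosen with earlier results of these data known. Named were all 8 subunit genes, the 2 tested genes of each channel list with the highest mean CPM (not scaled by length), and the 3 genes most like each subunit gene of at least 50 CPM, except 1 gene that is not reported here; Nrxn2 and the ratio to Cacna2d1 were chosen after their values were seen.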

Additional observations from a re-analysis of the deposited data

Results flagged for a closer look

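In 28 sets of 4 libraries (7 subunit genes in 4 groups), 3 had a library whose gap to the nearest of the others took a larger part of the group's range than Dixon's 95% limit for 4 samples, which chance passes in about 1 in 20 groups. Cacna2d3 had 100.4 CPM in cypermethrin non-stressed replicate 3, where the other 3 libraries had 41.6 to 50.3 CPM. Cacnb1 had 67.0 CPM in the same library, where the others had 35.8 to 38.9 CPM. Cacnb1 also had 81.8 CPM in vehicle non-stressed replicate 1, where the others had 26.2 to 31.4 CPM.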

How the results depend on the processing

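Over 1029 alternative values of the 42 log2 differences, none was called, 967 kept their sign and 62 reversed, and the smallest adjusted p (edgeR, DESeq2 or limma voom) was 0.572. In the comparisons with vehicle non-stressed these values include leave-outs of libraries from groups not compared. Such leave-outs can hardly move the difference, so the kept signs there say little. Of the 42, 19 never reversed. No paired analysis was run, since replicates came from different litters and the labels pair no libraries. Low counts limit Cacnb2 and Cacna2d4 most. The cause of the reversals was not tested.

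By tool or scaling, the interaction of Cacnb4 was -0.009 with RLE size factors and -0.009 with DESeq2, that of Cacnb1 was -0.146 with voom and -0.086 with the library code as a term, and Cacna2d1 with both exposures was 0.005 with voom. The first library code holds 1 cypermethrin non-stressed library, so fits within it that use this group assume that the lone sample varies like the other groups, and they compare that library and not the exposure. Within that code, reversed values were Cacna2d2 -0.244, Cacna2d3 -0.119, Cacnb1 -0.587 and Cacnb4 -0.049 with cypermethrin alone, Cacnb1 -0.345 with stress alone, Cacnb2 0.14 with both, Cacna2d1 0.027 in the interaction and Cacnb2 0.325 for cypermethrin averaged over stress. Within the second they were Cacnb2 -0.307 with cypermethrin alone, Cacnb3 0.092 and Cacnb4 0.08 with stress alone, Cacna2d1 0.017, Cacna2d3 0.117, Cacnb3 0.011 and Cacnb4 0.172 with both, Cacnb1 -1.144 and Cacnb4 -0.158 in the interaction, Cacna2d2 0.188 and Cacna2d3 0.267 for cypermethrin averaged over stress, and Cacnb3 0.136 and Cacnb4 0.001 for stress averaged over cypermethrin.

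Leaving out 1 library at a time gave, with cypermethrin alone, Cacna2d3 -0.068 to 0.43, Cacnb1 -0.169 to 0.644, Cacnb2 -0.048 to 0.708 and Cacnb4 -0.026 to 0.223. With stress alone it gave Cacna2d3 -0.014 to 0.366, Cacnb1 -0.1 to 0.621 and Cacnb2 -0.146 to 0.659, and with both exposures Cacna2d1 -0.082 to 0.056. The interaction ran from -0.352 to 0.035 for Cacna2d1, -0.346 to 0.466 for Cacnb1 and -0.125 to 0.124 for Cacnb4. Cypermethrin averaged over stress ran from -0.265 to 0.082 for Cacna2d2, and stress averaged over cypermethrin from -0.077 to 0.057 for Cacnb3. An unadjusted edgeR p under 0.05 appeared for the Cacna2d2 interaction without cypermethrin non-stressed replicate 1 or 2 or vehicle stressed replicate 3. It appeared for the Cacna2d3 interaction without cypermethrin stressed replicate 3. Cacna2d2 with stress alone lost it without vehicle non-stressed replicate 4 or vehicle stressed replicate 1. None of these was called. Chosen after seeing the data, leaving out vehicle stressed replicate 3 took the Nrxn2 interaction from -1.99 to 0.081.

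Over all genes, where edgeR called 0 in each comparison, DESeq2 called 1 (Cpeb1) for cypermethrin averaged over stress, and leaving out 1 library called 0 to 1 there (Dnajc1, without vehicle stressed replicate 3). Within the first library code edgeR called 2 genes (Cwc22 and Hbb-y) with cypermethrin alone, 45 with stress alone, 13 with both, 9 in the interaction, 14 for cypermethrin averaged over stress and 7 for stress averaged over cypermethrin; of these, all but the 45 and the 13 use the lone cypermethrin non-stressed library. With the longest coding transcript as length 6 of 8 places in the order held and the mean shares were 16.58% for Cacna2d3, 4.125% for Cacnb2 and 20.45% for Cacnb4; without vehicle stressed replicate 1, 6 places held.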
